A study of Mus musculus with 9 samples.

Results

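Endothelial cells line the inside of every blood vessel, and 10 genes that define them were followed through RNA sequencing of mouse aortic arch. They were Cdh5, Cldn5, Kdr, Flt1, Tek, Tie1, Eng, Egfl7, Vwf and Esam, chosen by name as endothelial junction and receptor genes, and all 10 were among the 21989 genes of the deposited table. The 9 libraries formed 3 groups of 3. High dose libraries came from ApoE-/- mice, which lack an apolipoprotein that clears lipoprotein remnants, on a high-fat diet with 5.12 g/kg/day of ZCL by gavage. Model libraries came from ApoE-/- mice on the same diet without ZCL. Control libraries were from C57BL/6J mice that received the standard diet. Treatment and high-fat feeding lasted 15 weeks, and the series title names Ziziphora clinopodioides Lam., a plant of the mint family. Genotype and diet differed together between model and control. The labels give no age, and nothing in them ties each library to its own animal. The p-values therefore set group differences against the spread of these samples only, and that spread may not be the spread between animals.

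The 10 genes cover the working parts of the endothelial surface. Cdh5 encodes VE-cadherin, the adhesive protein of the adherens junction, Cldn5 a claudin of the tight junction, and Esam an immunoglobulin-type adhesion molecule at the same contacts. Kdr and Flt1 encode receptors for vascular endothelial growth factor (VEGF): the KDR kinase carries most of the growth signal, and FLT1 binds the ligand tightly with weak signalling of its own. Tek encodes TIE2, the receptor of the angiopoietins, and Tie1 its partner without a well-defined ligand of its own. Eng encodes endoglin, a co-receptor for the ligands BMP9 and BMP10. Egfl7 encodes a secreted matrix protein and hosts the microRNA miR-126, and Vwf encodes von Willebrand factor, which tethers platelets and is stored in Weibel-Palade bodies.

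Expression was given as FPKM, the fragments of a gene scaled by its length and by the library total, so levels can be set side by side between genes. Relative depth, read from the steps between FPKM values under 0.2, ran from 56.3% of the deepest library in control 2 to 100% in model 1. The absolute depth is unknown, so no counting interval is given. Apoe, the deleted gene, stood at 30.3, 93.7 and 25.4 FPKM in high dose 1, 2 and 3, at 18.9, 33.4 and 24.5 in model 1, 2 and 3, and at 829, 1006 and 339.9 in control 1, 2 and 3. RNA of tissues next to the arch was unevenly spread. Myh6, a heart muscle gene, was at 634 FPKM in high dose 2, 1554 in high dose 3, 2729 in control 1 and 807 in control 2, while 5 libraries held 6.34 or less. Scgb1a1, an airway gene, was highest at 20438 FPKM in high dose 2, next to 6425 in control 2. Th, a catecholamine gene, reached 599.8 FPKM in high dose 1, Acta1, the skeletal muscle actin gene, 3707 in high dose 2, and Ucp1, the brown fat uncoupler, 7979 in control 3. Heart, lung and brown fat hold capillaries of their own. Fewer endothelial cells and less RNA per endothelial cell cannot be told apart in such bulk samples.

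Endothelial RNA was found in every library, though not every endothelial gene was steady or abundant. The general endothelial genes Pecam1, an adhesion molecule, and Nos3, the endothelial nitric oxide synthase, stood at 118 to 198 and at 16.9 to 34.4 FPKM over the 9 libraries. Calcrl, from the same list of 25 genes, ran more widely, from 2.69 to 45.7 FPKM. The order of mean level over the 9 libraries was Egfl7 (144 FPKM), Eng (125), Cdh5 (89.5), Esam (89.2), Tie1 (52.3), Kdr (37.2), Tek (28.5), Flt1 (19.6), Vwf (18.5) and Cldn5 (0.740). Neighbours in this order mostly changed places between libraries. Esam lay above Tie1 and Vwf above Cldn5 in 9 of 9 libraries, while Eng lay above Cdh5 in 5, Cdh5 above Esam in 5 and Flt1 above Vwf in 4. Cldn5 stood far apart at 0.238 to 1.39 FPKM, where Cdh5, its partner at the junction, stood at 32.4 to 137. Kdr varied the most, with its highest library 12.7 times its lowest, followed by Vwf at 6.91 times, and Tie1 the least at 1.82 times.

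**Figure D1:**
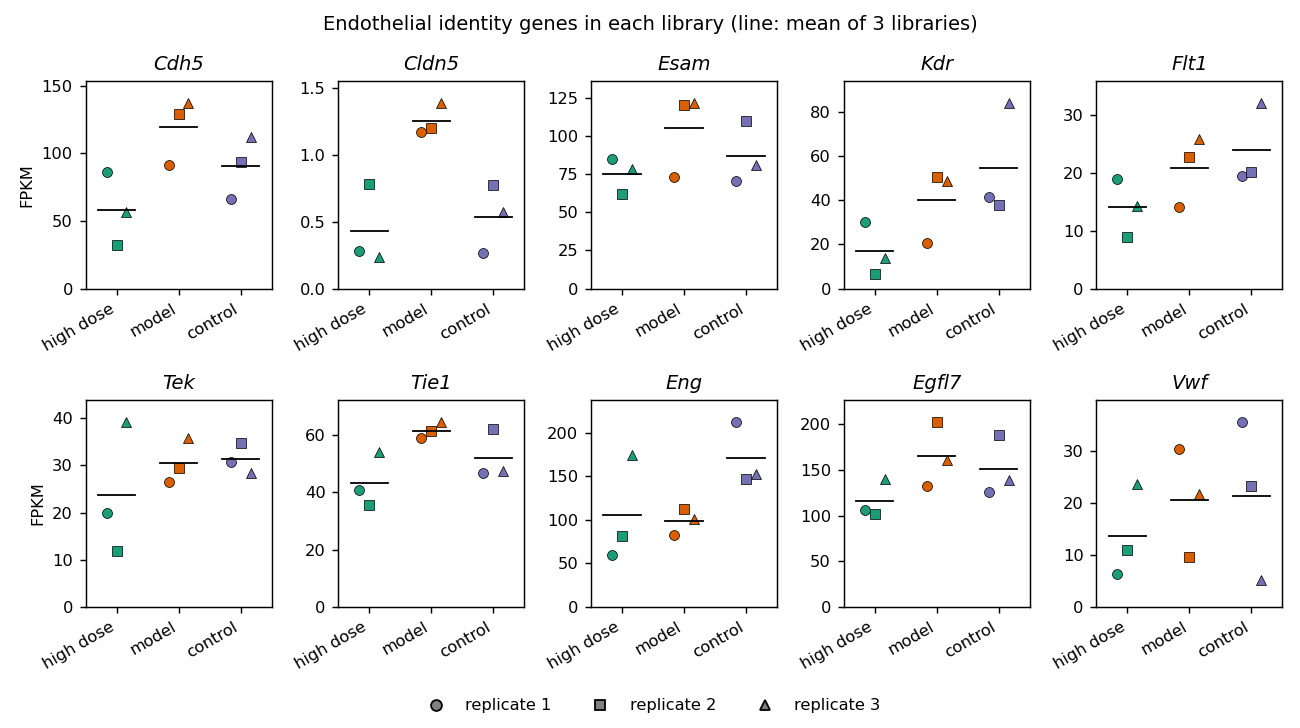
FPKM of the 10 endothelial identity genes in each library, with 1 panel per gene, a linear axis from 0, 1 point per library and a line at the mean of 3 libraries. Cdh5 and Tie1 lay lower in all 3 high dose than in all 3 model libraries, Eng lay lower in all 3 model than in all 3 control libraries, and Cldn5 was at 1.17 to 1.39 FPKM in model and under 1 FPKM elsewhere.

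No member passed the test in any comparison. Differences were tested with limma on log2(FPKM + 1) over the 12895 genes with at least 1 FPKM in at least 3 libraries, at a Benjamini-Hochberg adjusted p under 0.05, and 0 of 12895 genes (0%) passed in each of the 3 comparisons. Apoe, the deleted gene, did not pass either. Its log2 difference was -4.67 ± 0.561 (SE) in model against control and -3.94 ± 0.561 in high dose against control. The adjusted p-values by limma were 0.216 and 0.330. A member that did not pass is therefore not shown to be unchanged. Without high dose 3, 46 genes passed in high dose against model, none of them a member. All 10 members passed the filter, but Cldn5 did so only through the model libraries, so counts in the 3 comparisons are given over the other 9. Counts over alternative settings, given at the end, include Cldn5. At an unadjusted p under 0.05, 821 genes (6.37% of those tested) were counted in model against control, 1729 (13.4%) in high dose against model and 701 (5.44%) in high dose against control.

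Most of the endothelial genes lay lower in high dose than in model libraries, though none passed the test. The 9 members had log2 differences below 0 in 9 of 9 cases, where 49.9% of all tested genes lay below 0 and 50.1% above, and their median was -0.51 against 0.00080 over all tested genes. Eng hardly differed, at -0.050 ± 0.385 (SE), and its mean FPKM was higher in high dose (105) than in model (99.0). Cdh5 and Tie1, 2 of the 9, lay lower in every high dose than in every model library, as 10.9% of tested genes did (11.7% lay higher and 22.6% separated either way), and so did Cldn5. The largest differences were -1.34 ± 0.564 (SE) for Kdr and -1.11 ± 0.376 for Cdh5, on the log2(FPKM + 1) scale, at adjusted p = 0.366 and 0.311 by limma. With only the 5 libraries low in heart muscle genes, where high dose 1 stood alone for its group, they were -0.30 for Kdr and -0.44 for Cdh5, and Flt1 was at -0.089 in place of -0.55. Of the 10 members 7 had their lowest value of all in high dose 2, the library that also held the most Scgb1a1 and Acta1, and the part of those tissues in the difference was not tested. The median of the 9 members was -0.38 without high dose 2 and -0.68 without high dose 3, the ends of its range over single libraries left out.

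High dose and control libraries share the high dose values above, so the 2 comparisons are not independent. The 9 members again had log2 differences below 0 in 9 of 9 cases, where 49.8% of tested genes lay below 0 and 50.2% above, with a median of -0.54 against 0.0022 over all tested genes. That median was -0.34 without high dose 2 and -0.78 without high dose 3. Kdr and Flt1, both VEGF receptors, lay lower in every high dose than in every control library, as 5.02% of tested genes did (3.66% lay higher and 8.68% separated either way). Kdr had the largest difference of the members in this comparison, -1.78 ± 0.564 (adjusted p = 0.832 by limma).

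Model and control libraries differed in mixed directions. Of the 9 members 5 had log2 differences above 0 and 4 below, where 48.7% of tested genes lay above 0 and 51.3% below, with a median of 0.13 against -0.010 over all tested genes. That median was -0.020 without model 2 and 0.30 without control 2, and between these values without any other single library. Eng, 1 of the 9, lay lower in every model than in every control library, as 9.06% of tested genes did (16.0% separated either way), at a log2 difference of -0.77 ± 0.385 (adjusted p = 0.764 by limma). Cldn5 lay higher in every model than in every control library, as 6.91% of tested genes did, but it entered the test only through those libraries.

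**Figure D2:**
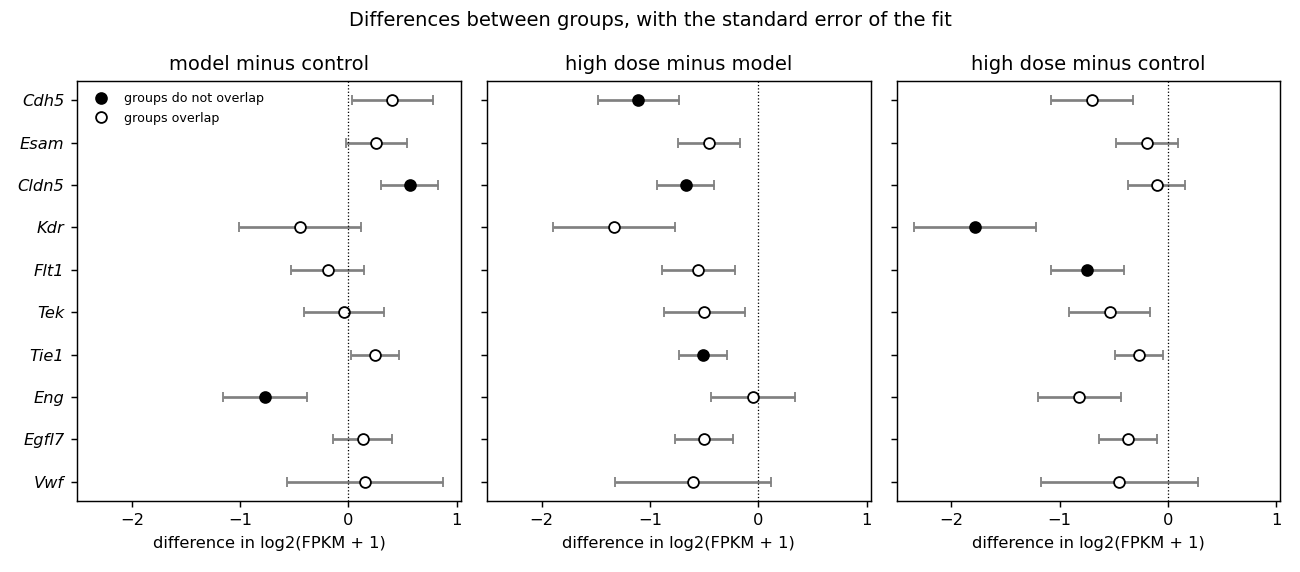
Differences in log2(FPKM + 1) for the 10 genes in the 3 comparisons, as points with the standard error of the fit, filled where the libraries of the 2 groups do not overlap. All points lie below 0 in high dose minus model and in high dose minus control, while model minus control has Cldn5 at 0.57 and Eng at -0.77 as its outermost points. Cldn5 passed the filter only through the model libraries.

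The starts of 7 of the 10 genes were found in the RefSeq promoter table, on GRCm38.p6, as windows of 250 bases before to 50 bases after the start; Egfl7 had 3 windows, and Cdh5, Vwf and Esam are named only. The windows below belong to the VEGF receptor pair, which moved most alike, and to the 3 other matched members whose groups did not overlap in some comparison. Capitals mark GGAA on either strand (printed TTCC on the other), the core of the motif bound by ETS factors such as ERG and FLI1, a family that drives many endothelial genes.
They lie at chr5:75978406-75978705 (minus strand, Kdr), chr5:147725962-147726261 (minus strand, Flt1), chr4:118489800-118490099 (minus strand, Tie1), chr2:32646345-32646644 (plus strand, Eng), chr16:18776597-18776896 (plus strand, Cldn5).
Kdr: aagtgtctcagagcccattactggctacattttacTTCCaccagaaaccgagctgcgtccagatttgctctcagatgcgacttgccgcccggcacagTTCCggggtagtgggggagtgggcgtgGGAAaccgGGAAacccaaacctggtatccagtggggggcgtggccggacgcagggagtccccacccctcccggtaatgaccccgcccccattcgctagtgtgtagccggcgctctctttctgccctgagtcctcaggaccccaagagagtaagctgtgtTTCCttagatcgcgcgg
Flt1: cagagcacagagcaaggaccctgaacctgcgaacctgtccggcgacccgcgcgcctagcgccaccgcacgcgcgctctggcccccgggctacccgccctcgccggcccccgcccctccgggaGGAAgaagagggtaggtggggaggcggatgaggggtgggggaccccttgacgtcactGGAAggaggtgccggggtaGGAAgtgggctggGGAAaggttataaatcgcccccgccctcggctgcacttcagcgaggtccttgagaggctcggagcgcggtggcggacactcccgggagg
Tie1: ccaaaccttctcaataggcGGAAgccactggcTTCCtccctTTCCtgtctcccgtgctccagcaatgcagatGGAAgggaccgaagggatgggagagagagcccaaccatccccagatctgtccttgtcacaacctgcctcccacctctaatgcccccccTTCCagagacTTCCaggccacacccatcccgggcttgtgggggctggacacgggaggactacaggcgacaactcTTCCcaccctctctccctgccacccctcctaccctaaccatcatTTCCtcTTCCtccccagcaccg
Eng: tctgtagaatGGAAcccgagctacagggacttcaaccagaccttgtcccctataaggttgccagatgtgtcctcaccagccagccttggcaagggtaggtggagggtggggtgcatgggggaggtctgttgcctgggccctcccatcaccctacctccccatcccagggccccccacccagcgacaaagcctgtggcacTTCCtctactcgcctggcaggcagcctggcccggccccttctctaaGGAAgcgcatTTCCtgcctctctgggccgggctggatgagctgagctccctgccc
Cldn5: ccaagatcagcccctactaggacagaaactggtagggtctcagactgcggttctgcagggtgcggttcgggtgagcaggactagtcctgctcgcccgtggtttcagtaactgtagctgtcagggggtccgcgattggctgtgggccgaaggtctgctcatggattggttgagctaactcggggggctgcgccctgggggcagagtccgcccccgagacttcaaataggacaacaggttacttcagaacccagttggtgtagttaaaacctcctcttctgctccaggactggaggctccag
GGAA occurred 9 times in the Tie1 window, 5 times in that of Kdr, 4 times each in those of Flt1 and Eng, 2 times in that of Tek, and 5, 4 and 1 times in the 3 Egfl7 windows. The Cldn5 window held 0. Of all 32851 promoter windows 96.0% held GGAA at least once, with a median of 3 matches, and 46.3% held 4 or more. The longer AGGAAG, which contains GGAA, occurred in 5 of the 9 member windows and in 35.4% of all windows. Other motifs were searched on both strands in the same way. CACCC, the core bound by KLF factors, occurred in 7 of 9 and 57.5%, CANNTG, the E-box, in 7 of 9 and 72.3%, and GGGCGG, the GC box, in 4 of 9 and 35.7%. AGATAA, read by haematopoietic and endothelial zinc finger factors, occurred in 1 window (Tek) and 11.2%. The core promoter motif TATAAA occurred in 1 window (Flt1) and 13.6%. The forkhead motif GTAAACA occurred in 0 and 3.65%. These matches describe the letters of the windows only.

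Cdh5 separated high dose from model libraries among the junction genes. The gene lies on chromosome 8, 104101625 to 104144511 (plus strand, GRCm38, GENCODE M21). It stood at 86.2, 32.4 and 56.4 FPKM in high dose 1, 2 and 3, at 91.6, 129 and 137 in model 1, 2 and 3, and at 66.0, 93.6 and 112 in control 1, 2 and 3. The mean was 58.3 ± 26.9 FPKM in high dose, 119 ± 24.4 in model and 90.7 ± 23.4 in control (SD, n = 3 each), and high dose and model did not overlap, with high dose 1 next to model 1. Against control, high dose 1 lay above control 1, and the groups overlapped. Esam, on chromosome 9, 37528078 to 37538319, stood at 85.3, 62.1 and 78.5 FPKM in high dose, at 73.4, 121 and 122 in model and at 70.4, 109.8 and 81.0 in control. Its groups overlapped in all 3 comparisons, with a log2 difference of -0.45 ± 0.284 between high dose and model (adjusted p = 0.474 by limma).

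Cldn5, on chromosome 16, 18776847 to 18778262, is annotated as a single exon of 1416 bases. It stood at 0.281, 0.779 and 0.238 FPKM in high dose, at 1.17, 1.20 and 1.39 in model and at 0.264, 0.772 and 0.571 in control. The model libraries lay above all 6 others. Cldn5 passed the filter only through these libraries, so its tests against model are not independent of the filter. The values are near the low end of what the table resolves, and the added 1 of the log scale shrinks the differences, which were 0.57 ± 0.266 for model minus control and -0.67 ± 0.266 for high dose minus model (adjusted p = 0.761 and 0.352 by limma). Other junction genes, from a list of 14 of which 12 were tested, had a median log2 difference of -0.25 in high dose against model, with 8 lower and 4 higher. Of these, Jam2, a junctional adhesion molecule, Tjp1, the tight junction scaffold ZO-1, and Ctnnd1, the p120 catenin that holds VE-cadherin at the membrane, were lower in every high dose library. Jam2 averaged 17.9 ± 5.08 FPKM in high dose, 33.9 ± 6.67 in model and 35.4 ± 6.23 in control (SD, n = 3 each). Tjp1 averaged 12.7 ± 1.84 in high dose, 21.9 ± 4.78 in model and 22.4 ± 3.23 in control. All 3 also lay below every control library. They were among 4 of the 12 tested junction genes that did so, beside 5.02% of all tested genes. 5 tested members of the junction list did not overlap downwards between high dose and model and 1 upwards, beside 10.9% and 11.7% of all tested genes, and 0 passed.

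The VEGF receptors varied together. Kdr, on chromosome 5, 75932827 to 75978458 (minus strand), stood at 30.2, 6.60 and 13.7 FPKM in high dose 1, 2 and 3, at 20.8, 50.4 and 49.0 in model 1, 2 and 3, and at 41.6, 38.1 and 84.1 in control 1, 2 and 3. Flt1, on the same chromosome at 147561604 to 147726011 (minus strand), stood at 18.9, 8.95 and 14.2 FPKM in high dose, at 14.1, 22.6 and 25.7 in model and at 19.5, 20.1 and 32.0 in control. Both were lowest in high dose 2 and highest in control 3, and in each, model 1 lay below the other 2 model libraries. High dose and model overlapped for both genes: model 1 lay below high dose 1 in Kdr and below high dose 1 and 3 in Flt1. Their promoter windows are the first 2 printed above.

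Some capillary genes had their extremes in the same libraries as Kdr and Flt1, and others did not. Cd36, the fatty acid transporter of capillary endothelium, fat and macrophages, stood at 323, 80.9 and 254 FPKM in high dose, at 276, 485 and 546 in model and at 457, 380.3 and 869 in control. Btnl9, a gene of capillary endothelium, stood at 9.46, 1.62 and 5.85 FPKM in high dose, at 11.2, 17.1 and 19.3 in model and at 13.3, 17.2 and 37.9 in control. Both had the lowest and the highest value in the same libraries as Kdr and Flt1. Other genes of the 9-gene capillary list went differently: Tcf15, a transcription factor gene, was lowest in control 1 at 7.23 FPKM and stood at 25.2 in high dose 2, and Aqp1 was lowest in high dose 3 and highest in model 2. Control 3 held the most Ucp1, while high dose 1, second for Ucp1 at 2281 FPKM, held 30.2 FPKM of Kdr. The summed level of the 5 brown fat genes ran from 1565 to 4223 FPKM in high dose, from 935 to 3102 in model and from 1303 to 12483 in control, and its part in the Kdr and Flt1 values was not tested. The log2 difference in Kdr between high dose and control was -1.28 without high dose 2, -1.43 without control 3 and -2.30 without high dose 1.

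The ligand genes Vegfa and Pgf had higher means in high dose than in model, where Kdr and Flt1 had lower ones. Flt4, a further VEGF receptor gene, had a higher mean too, at 6.53 ± 1.84 FPKM in high dose and 4.44 ± 2.09 in model. Vegfa, the main ligand of KDR, stood at 153, 90.1 and 172 FPKM in high dose, at 41.3, 98.4 and 85.8 in model and at 65.0, 76.2 and 100.1 in control. Pgf, a ligand of FLT1, stood at 8.05, 12.7 and 15.8 FPKM in high dose, at 3.43, 4.11 and 4.95 in model and at 7.25, 6.56 and 1.80 in control. Every high dose library lay above every model and every control library for Pgf, with log2 differences of 1.31 ± 0.424 and 1.19 ± 0.424 (adjusted p = 0.289 and 0.832 by limma). For Vegfa the high dose libraries overlapped both other groups through high dose 2. Of the 8 tested genes of the ligand and co-receptor list, Flt4 included, 5 were higher and 3 lower in high dose than in model. The median log2 difference was 0.29, and 0 passed. The lower ones were Vegfc, Nrp1 and Nrp2. Nrp2 lay lower in every high dose than in every model library, as 10.9% of tested genes did.

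Of the TIE receptors, Tie1 separated high dose from model and Tek did not. Tek, on chromosome 4, 94739289 to 94874976 (plus strand), stood at 19.9, 12.0 and 39.2 FPKM in high dose 1, 2 and 3, at 26.4, 29.4 and 35.8 in model 1, 2 and 3, and at 30.8, 34.7 and 28.5 in control 1, 2 and 3. High dose held both the lowest and the highest Tek library. Tie1, on the same chromosome at 118471191 to 118490061 (minus strand), stood at 40.7, 35.5 and 54.0 FPKM in high dose, at 58.8, 61.2 and 64.6 in model and at 46.6, 62.0 and 47.5 in control. All high dose values of Tie1 lay below all model values, with a log2 difference of -0.51 ± 0.222 (adjusted p = 0.370 by limma), while high dose and control overlapped.

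Among the genes around the TIE receptors, Ptprb, which encodes VE-PTP, a phosphatase that acts on TIE2, stood at 14.6, 10.1 and 15.1 FPKM in high dose, at 25.2, 31.4 and 31.9 in model and at 15.9, 25.2 and 26.2 in control. High dose lay below both other groups without overlap, with log2 differences of -1.11 ± 0.255 against model and -0.71 ± 0.255 against control (adjusted p = 0.197 and 0.845 by limma). Angpt2, the angiopoietin stored in Weibel-Palade bodies, averaged 14.8 ± 8.67 FPKM in model and 6.62 ± 1.40 in control without overlap, with model 1 alone at 24.8. Angpt1, the agonist made by mural and heart cells, stood at 0.821, 1.68 and 5.55 FPKM in high dose, at 1.93, 4.65 and 5.05 in model and at 35.6, 9.89 and 2.25 in control. Its 2 highest values fell in control 1 and control 2, which also held heart muscle genes. High dose 2 and 3 held heart muscle genes too, yet high dose 2 lay below every model library for Angpt1. The part of heart tissue in the Angpt1 values was not tested. In high dose against model 7 of 7 tested genes of the angiopoietin list were lower and 0 passed, with a median log2 difference of -0.51.

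Eng was lower in every model than in every control library. On chromosome 2, 32646595 to 32682669 (plus strand), it stood at 59.9, 81.5 and 174 FPKM in high dose 1, 2 and 3, at 82.9, 113 and 101 in model 1, 2 and 3, and at 213, 147 and 153 in control 1, 2 and 3. The mean was 105 ± 60.8 FPKM in high dose, 99.0 ± 15.2 in model and 171 ± 36.4 in control (SD, n = 3 each), with no overlap between model and control. High dose spanned both groups, with high dose 3 above 2 of the 3 control libraries and high dose 1 and 2 below every model library. The highest Eng values, in control 1 and high dose 3, fell in the 2 libraries with the most Myh6, and control 3 held 153 FPKM of Eng at 1.85 FPKM of Myh6. The part of heart tissue in the Eng values was not tested. Exons of Eng share 61 bases with Fpgs on the opposite strand, and the strand setting of the counting is not given in the sources used here, so reads there cannot be told apart.

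The genes beside endoglin in its pathway showed no common direction between model and control. Acvrl1, the BMP9 receptor ALK1, stood at 17.0, 25.9 and 27.8 FPKM in high dose, at 27.7, 25.1 and 24.1 in model and at 19.7, 40.9 and 23.8 in control, with overlap in all 3 comparisons. Smad6, an inhibitor that the pathway induces, averaged 10.8 ± 4.12 FPKM in model and 22.5 ± 6.36 in control (log2 difference -1.01 ± 0.361, adjusted p = 0.713 by limma) with overlap through model 1. Id1, a direct target, averaged 129 ± 52.1 FPKM in high dose, 218 ± 58.0 in model and 199.9 ± 44.5 in control. Of the ligand genes, Bmp10, which is made by the right atrium, reached 158 FPKM in control 1 and 4.63 in control 2 but 0.151 at most in the other 7 libraries, and Gdf2, which encodes BMP9 and is made mainly by the liver, at 0 to 0.562. In model against control 5 of 10 tested genes of the endoglin list were higher and 5 lower, and 0 passed.

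Egfl7, the most abundant member, lies on chromosome 2, 26580014 to 26593120 (plus strand). It stood at 106, 102 and 140.1 FPKM in high dose 1, 2 and 3, at 132, 202 and 161 in model 1, 2 and 3, and at 126, 188 and 139 in control 1, 2 and 3. The groups overlapped in all 3 comparisons, and high dose minus model was -0.50 ± 0.268 (adjusted p = 0.419 by limma). Its exons share 264 bases with Gm20532 on the same strand and 64 with Agpat2 on the opposite one, so some reads cannot be assigned to Egfl7 alone. Secreted EGFL7 acts on Notch receptors, and the Notch list was read beside it. Hey1, a Notch target, averaged 7.91 ± 1.94 FPKM in high dose, 14.2 ± 4.45 in model and 15.3 ± 3.20 in control, and Notch1 averaged 7.39 ± 1.58, 12.4 ± 3.15 and 11.5 ± 2.19 in the same groups. Both lay lower in every high dose library than in every library of the other groups. Of 7 tested Notch genes 6 were lower in high dose than in model and 1 higher, with 0 that passed. Against model 2 lay lower without overlap, beside 10.9% of all tested genes, and against control 4, beside 5.02%. Jag2 was the higher gene, at 0.28 ± 0.377, and Hes1 hardly differed from model, at -0.028 ± 0.551.

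Vwf separated libraries and not groups. On chromosome 6, 125546774 to 125686679 (plus strand), it stood at 6.25, 11.03 and 23.6 FPKM in high dose 1, 2 and 3, at 30.3, 9.65 and 21.7 in model 1, 2 and 3, and at 35.6, 23.3 and 5.15 in control 1, 2 and 3. Each group held 1 library under 10 FPKM and at least 1 over 23, so all groups overlapped. Its standard error, 0.722 on the log2 scale, was the widest of the members. Selp, the P-selectin stored with von Willebrand factor, stood at 2.98, 4.78 and 18.4 FPKM in high dose, at 40.6, 19.1 and 8.46 in model and at 1.94, 4.08 and 1.32 in control. Selp was higher in all 3 model libraries than in any control library, at a log2 difference of 2.61 ± 0.687 (adjusted p = 0.688 by limma), although model 2 held little Vwf. Edn1, the endothelin precursor of the same granules, averaged 15.9 ± 8.95 FPKM in model and 5.10 ± 0.982 in control, again without overlap. Of the 9 tested genes of the Weibel-Palade list 7 were higher and 2 lower in model than in control, and 0 passed. Selp, Angpt2 and Edn1, 3 of the 9, lay higher without overlap, beside 6.91% of all tested genes. Platelets carry Vwf and Selp RNA of their own. Of the 4 tested platelet genes 4 were higher in model than in control and 4 lower in high dose than in model. Gp9, a platelet glycoprotein gene, averaged 0.811 ± 0.373 FPKM in high dose, 3.53 ± 0.201 in model and 1.96 ± 0.693 in control, with model above both other groups without overlap. Pf4 stood at 0.208 to 1.66 FPKM, and the summed level of 8 platelet genes was 4.59 to 12.1 FPKM in high dose, 13.7 to 19.6 in model and 7.84 to 17.3 in control. The part of platelets in the Vwf and Selp values was not tested.

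**Figure D3:**
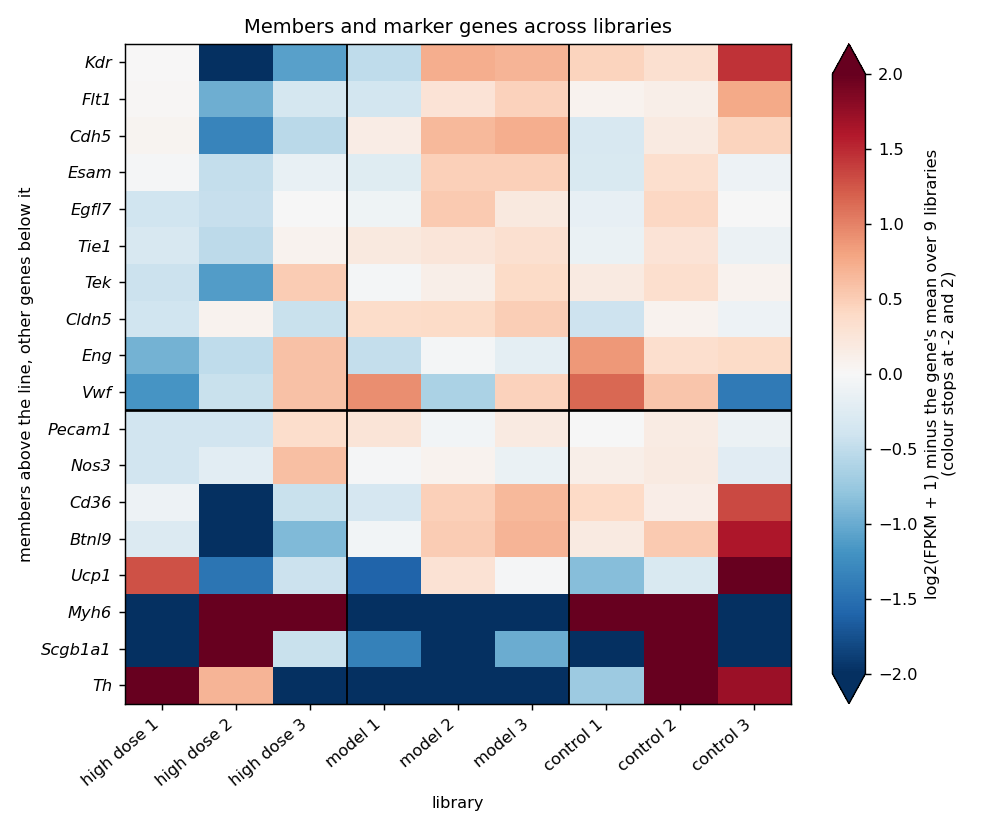
Each gene's log2(FPKM + 1) minus its own mean over the 9 libraries, in colour, for the 10 members above the line and 8 marker genes below it, with libraries ordered as high dose, model and control. Kdr, Flt1, Cd36 and Btnl9 are lowest in high dose 2 and highest in control 3, Vwf is low in control 3, and Myh6 and Scgb1a1 mark the libraries that hold heart and airway genes.

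Within a library the members did not keep fixed proportions. Ratios divide 2 FPKM values of 1 library, so they do not depend on its total, and the pairs were chosen after the values had been seen, so they carry no test. Eng over Cdh5 was 0.695, 2.51 and 3.09 in high dose 1, 2 and 3, 0.905, 0.873 and 0.737 in model 1, 2 and 3, and 3.22, 1.57 and 1.36 in control 1, 2 and 3. The model libraries lay below 1 and all control libraries above it. Kdr over Cdh5 was 0.350, 0.204 and 0.243 in high dose, 0.227, 0.390 and 0.357 in model, and 0.631, 0.407 and 0.749 in control. Every high dose and every model library lay below every control library. Flt1 over Kdr was 0.627, 1.36 and 1.04 in high dose, 0.675, 0.449 and 0.525 in model, and 0.467, 0.527 and 0.380 in control, so every high dose library lay above every control library. Tek over Tie1 was 0.489, 0.337 and 0.727 in high dose, 0.450, 0.480 and 0.555 in model, and 0.661, 0.560 and 0.600 in control, with no overlap between model and control. Further ratios were formed. Egfl7 over Cdh5, Vwf over Cdh5, Eng over Acvrl1 and Angpt2 over Angpt1 overlapped in all 3 comparisons. Esam over Cdh5, Cldn5 over Cdh5 and Selp over Vwf separated in some. No share over other gene pairs was computed.

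**Figure D4:**
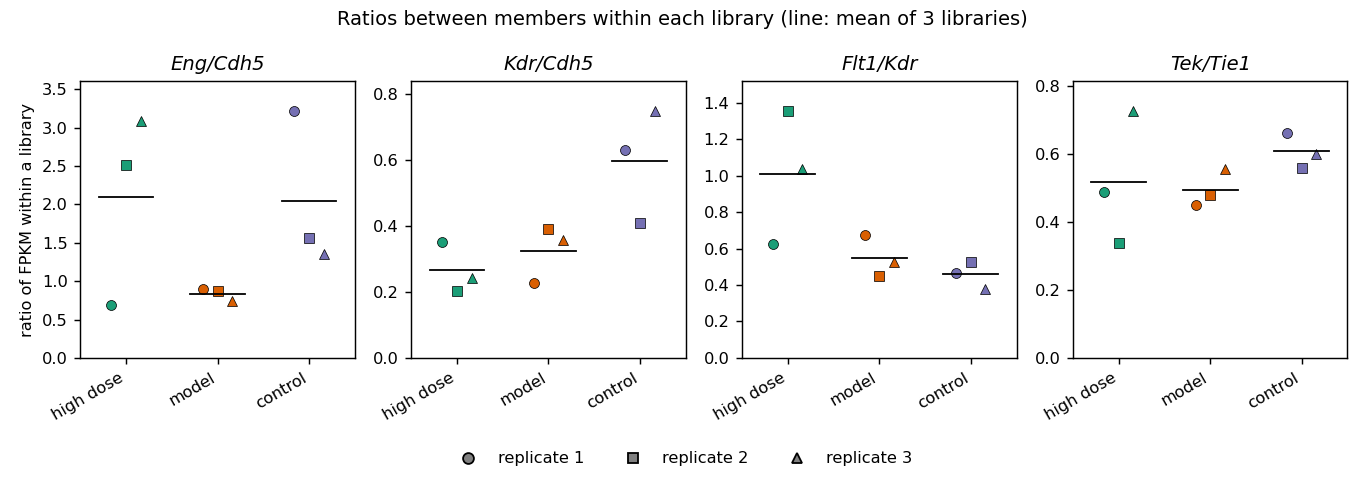
Ratios of FPKM within each library for 4 pairs of members, with a linear axis from 0, 1 point per library and a line at the mean of 3 libraries. Eng over Cdh5 is 0.737 to 0.905 in model and 1.36 to 3.22 in control, and Flt1 over Kdr is 0.627 to 1.36 in high dose and 0.380 to 0.527 in control.

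The similarity of the members' profiles was described by Pearson's r over the 9 libraries on log2(FPKM + 1), which share depth and tissue content and give no p here. Kdr and Flt1 were the most alike (r = 0.98), followed by Tie1 with Egfl7 (0.87), Cdh5 with Kdr (0.86) and Cdh5 with Flt1 (0.86). At the other end stood Cldn5 with Eng (-0.34), Vwf with Flt1 (-0.27) and Vwf with Kdr (-0.21), and Cdh5 with Eng was at 0.0035. Outside the members, the 10 genes of 12895 closest to the members' mean profile were Ccdc53, Arhgap29, Slfn5, Zfp397, Arl6ip6, Fam204a, 9430020K01Rik, Kpna4, Enpep and Ccz1, with r from 0.97 to 0.94. Arhgap29 stood at 25.7, 15.4 and 29.7 FPKM in high dose, at 27.2, 49.1 and 44.9 in model and at 35.4, 40.7 and 35.3 in control. None of the 25 other pan-endothelial genes was among these 10.

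The 25 other pan-endothelial genes set the members in context. Their mean log2(FPKM + 1) was 4.74, 4.52 and 5.32 in high dose 1, 2 and 3, 5.17, 5.30 and 5.32 in model 1, 2 and 3, and 5.01, 5.48 and 5.03 in control 1, 2 and 3. High dose 1 and 2 lay below all other libraries, and high dose 3 lay with model 3. The mean of the 9 members was 5.27, 4.76 and 5.59 in high dose, 5.58, 5.89 and 6.02 in model, and 5.83, 5.95 and 5.79 in control. Of the 25 genes 19 were lower and 6 higher in high dose than in model, with a median log2 difference of -0.45, and 4 lay lower without overlap, beside 10.9% of all tested genes. These included Cd93, a lectin-like receptor at 28.0 ± 11.7 FPKM in high dose and 48.8 ± 6.89 in model, and Myct1 at 15.3 ± 3.98 and 25.6 ± 3.14. Between model and control 16 were higher and 9 lower, with a median of 0.086, and Cd93, at 27.1 ± 3.29 FPKM in control, lay higher in every model library. None of the 25 passed in any comparison.

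When each member was set against this mean of 25 genes in its own library, 2 of the 9 did not overlap between model and control. Eng lay lower, as 12.6% of tested genes did on this scale, and Tie1 higher, as 5.55% did. Eng was 1.37 ± 0.156 log2 units above the mean in model and 2.23 ± 0.501 in control, a difference of -0.86 (SD, n = 3 each). Tie1 was 0.71 ± 0.0373 above it in model and 0.54 ± 0.0404 in control. Cldn5, which entered the test only through the model libraries, was higher there by 0.48. In high dose against model no member was without overlap on this scale, where 1.68% of tested genes lay lower and 20.7% higher, and the differences of Cdh5 and Kdr were -0.71 and -0.94. These values are descriptions with no test.

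Of the endothelial transcription factors, 6 lay lower in every high dose than in every model library. Klf4, a flow-responsive factor of endothelium and smooth muscle, stood at 13.8, 20.9 and 28.4 FPKM in high dose, at 71.7, 120.1 and 93.9 in model and at 48.3, 49.4 and 49.3 in control. The 3 groups did not overlap anywhere, with log2 differences of -2.15 ± 0.292 for high dose minus model, -1.24 ± 0.292 for high dose minus control and 0.91 ± 0.292 for model minus control (adjusted p = 0.131, 0.642 and 0.708 by limma). Sox7, a factor of the SOXF family, stood at 7.64, 2.34 and 7.89 FPKM in high dose, at 16.1, 23.8 and 19.3 in model and at 12.1, 13.8 and 15.1 in control. Its relative Sox18 averaged 29.2 ± 1.30 FPKM in high dose, 49.4 ± 5.27 in model and 65.6 ± 16.8 in control. Both lay lower in every high dose library than in all others. Of 12 tested factors 11 were lower and 1 higher in high dose than in model, with a median log2 difference of -0.69, 6 that did not overlap downwards beside 10.9% of all tested genes, and 0 that passed. Klf4 is not limited to endothelium: the smooth muscle genes Acta2 and Myh11 stood at 177 to 982 and 49.2 to 301 FPKM in high dose, at 812 to 1857 and 171 to 449 in model and at 660.3 to 1272 and 175 to 323 in control, and their part in the Klf4 values was not tested.

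Arterial and capillary genes were lower in high dose too, but the lists share genes and are not separate counts. Hey1 and Sox17, both among the arterial genes without overlap, were already counted with the Notch genes and the transcription factors. Dll4 is shared with the Notch list, and Ptprb is in both the angiopoietin and the pan-endothelial list. Of 10 tested arterial genes 9 were lower than in model, where 49.9% of all tested genes were, with a median of -0.85, and 3 did not overlap, beside 10.9% of all tested genes. They included Sox17, an arterial factor at 7.45 ± 2.53 FPKM in high dose and 16.2 ± 1.45 in model, and Efnb2, the arterial ephrin, at 3.40 ± 1.81 and 8.00 ± 1.10. Of 9 tested capillary genes 8 were lower, with a median of -1.06, and 3 did not overlap, beside the same shares. Meox2, a homeobox gene of capillary endothelium and muscle, averaged 11.4 ± 2.66 FPKM in high dose, 31.0 ± 9.38 in model and 17.0 ± 5.14 in control, and Aqp1, a water channel, 161 ± 47.0, 360.2 ± 89.1 and 174 ± 30.9 in the same groups. Meox2 and Aqp1 lay higher in every model than in every high dose library, and 0 genes of either list passed.

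Lists of other cell types moved beside the endothelial genes. In high dose against model, 7 of 7 red cell genes were lower, with a summed level of 2694 to 21260 FPKM in high dose and 21378 to 64124 in model, and 6 of 6 nerve and neuroendocrine genes were higher, at 7.48 to 2231 and 0.382 to 3.20 FPKM. The 10 heart muscle genes were all higher, at 29.1 to 18756 FPKM in high dose and 49.9 to 92.8 in model, and 7 of 8 contractile smooth muscle genes were lower, at 488 to 4213 and 1835 to 4483 FPKM. Lower too were 9 of 9 macrophage genes, at 177 to 1318 FPKM in high dose and 504 to 2156 in model, and 6 of 6 pericyte genes, at 127 to 285 and 297 to 382 FPKM. Airway genes were higher in 6 of 6 cases, at 18.4 to 20583 and 18.03 to 51.9 FPKM, as were skeletal muscle genes in 7 of 7, at 75.4 to 7310 and 13.7 to 351 FPKM. In high dose against control, 9 of 9 macrophage and 7 of 7 skeletal muscle genes were higher and 7 of 7 red cell genes lower. The control sums were 92.1 to 272, 133 to 317 and 8841 to 15946 FPKM for these lists. In model against control, 9 of 9 macrophage genes were higher, at 504 to 2156 FPKM in model and 92.1 to 272 in control, and 7 of 7 red cell genes were higher, at 21378 to 64124 and 8841 to 15946 FPKM. All 6 nerve and neuroendocrine genes were lower without overlap, beside 9.06% of all tested genes, at 0.382 to 3.20 FPKM in model and 64.3 to 539 in control. Heart muscle genes were lower in 10 of 10 cases, at 49.9 to 92.8 and 34.2 to 32385 FPKM. Airway genes were lower in 6 of 6, at 18.03 to 51.9 and 23.2 to 8155 FPKM. Both of these lists overlapped between the groups. No gene of these lists passed, and their part in the endothelial values was not tested.

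**Figure D5:**
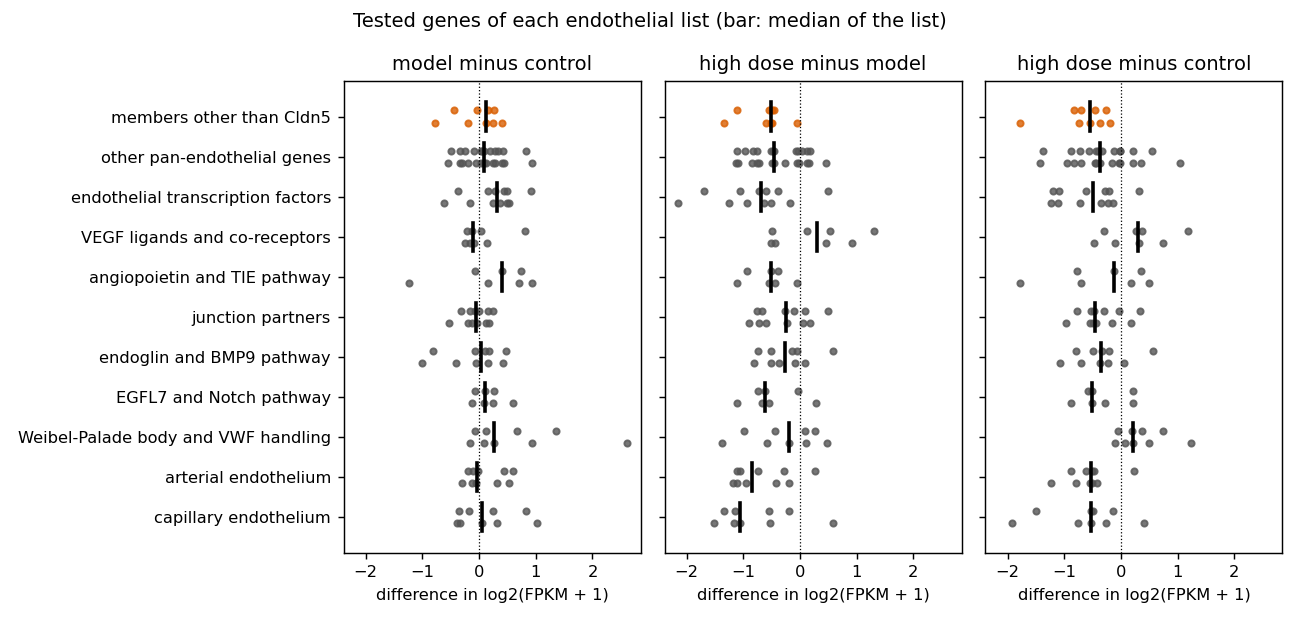
Differences in log2(FPKM + 1) for the tested genes of 11 endothelial lists in the 3 comparisons, as 1 point per gene with a bar at the median of the list. Some genes belong to several lists. In high dose minus model the medians of the 9 members other than Cldn5, the transcription factors, the arterial and the capillary genes are -0.51, -0.69, -0.85 and -1.06, while that of the VEGF ligands and co-receptors is 0.29.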

How the data were processed

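RNA was sequenced from mouse aortic arch in 9 libraries, 3 each of high dose, model and control, all with batch label 1. TRIzol extraction and mRNA library preparation with a NEBNext Ultra kit are stated per the labels' protocols. The authors deposited 1 table of FPKM values for 21989 protein-coding genes, with replicates kept apart. The submitters' processing notes name the builds GRCm38.p5 and mm10. The aligner, counter and strand setting were not given in the sources used here. Since FPKM is scaled to a library total, a few abundant genes depress the values of the rest. Haemoglobin genes took 0.569% to 4.60% of summed FPKM in high dose, 4.97% to 14.3% in model and 2.00% to 3.70% in control.

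Columns were matched to titles by name, with HD for high dose, AS for model and Contorl (a misspelling) for control. Genes with at least 1 FPKM in at least 3 libraries (12895) entered a two-sided test on log2(FPKM + 1) in limma 3.58.1 (R 4.3.3). A single model held all 9 libraries and estimated 3 group means, variances were moderated by empirical Bayes with a mean trend, and p-values were adjusted by Benjamini-Hochberg across every gene tested. Differences on this scale understate the change of low genes. The procedure was checked on simulated data. Members, lists and tests were chosen with earlier results of these data known. Named genes were the members, Apoe, up to 3 genes of smallest p per list and comparison, fixed markers, and the 10 of highest correlation with the members. Acvrl1, Bmp10, Gdf2, Ccl21a, Calcrl, Myh11, Tcf15, Vegfc, Nrp1, Jag2, Hes1, the ratios and the scale relative to 25 endothelial genes were chosen after their values were seen. Alternatives were a pseudocount of 0.1, no filter, 2 rescalings, array weights, only the 2 groups compared, a replicate block, only the 5 libraries low in heart muscle genes, and each library left out. Gene positions came from GENCODE M21 and promoter windows from RefSeq, on GRCm38. Figures were drawn with matplotlib 3.10.9.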

Additional observations from a re-analysis of the deposited data

How the results depend on the processing

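No member passed under any of the 17 alternatives, in 510 values, and direction was kept in 490 of these. The smallest limma adjusted p was 0.0713, for Cldn5 in model against control with array weights. Cldn5 passed the filter only through the model libraries, so this p is not independent of the filter. Among the other members the smallest limma adjusted p was 0.0925, for Cdh5 in the same comparison and setting. Array weights turned Flt1 and Kdr to 0.13 and 0.078 and Vwf to -0.89 in model against control, and Eng and Vwf to 0.019 and 0.044 in high dose against model. With only the 5 libraries low in heart muscle genes, where the lone control and high dose libraries are assumed to vary like the model ones, Tek stood at 0.087 in model against control, and Esam and Vwf at 0.073 and 0.24 in high dose against control. With 1 library left out, model against control ran from -0.36 to 0.054 for Flt1, -0.16 to 0.055 for Tek, -0.027 to 0.30 for Egfl7 and -0.60 to 0.68 for Vwf, high dose against model from -0.48 to 0.28 for Eng, and high dose against control from -0.27 to 0.0043 for Cldn5 and -1.21 to 0.079 for Vwf. The cause of these shifts was not tested.

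Over all genes tested, array weights called 684 in model against control and 6 in high dose against model, no filter 1 in each high dose comparison, only the 2 groups compared 1 in high dose against model, and the 5 libraries 591 in high dose against model and 229 in high dose against control. Leaving out 1 library called 0 to 46 in high dose against model, with 46 without high dose 3, and 0 in the other comparisons. The replicate block called 0 genes in each comparison, and its median over the 9 members was 0.13, -0.51 and -0.54 for model against control, high dose against model and high dose against control. Same-numbered libraries did not pair: their deviations from the group means correlated at -0.52 to 0.31, and only 3 of 9 pairs passed 0.1. Low values such as those of Cldn5 are limited by depth, which is known only in relative terms.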

Other observations

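Of 6 pericyte genes 6 were lower in high dose than in model (median log2 difference -0.67), 5 were lower in high dose than in control and 5 were higher in model than in control. Venous, lymphatic and endocardial genes lay on both sides of 0 in each comparison. Ackr1, the venular chemokine receptor, stood at 28.0, 11.4 and 8.49 FPKM in high dose, at 4.54, 1.62 and 8.17 in model and at 2.58, 13.4 and 4.19 in control, with every high dose library above every model library. Aplnr, the apelin receptor, averaged 4.18 ± 1.59 FPKM in high dose, 8.47 ± 0.547 in model and 5.90 ± 1.81 in control (SD, n = 3 each), with every model library above all others. Rgs5, a pericyte gene, averaged 120 ± 61.1 FPKM in high dose, 227 ± 54.0 in model and 183 ± 28.5 in control, with overlap throughout. Prox1, the lymphatic factor that heart muscle also expresses, stood at 1.50, 1.39 and 4.53 FPKM in high dose, at 0.0503, 0.484 and 1.31 in model and at 4.95, 2.03 and 0.145 in control, and Ccl21a, a lymphatic chemokine gene, was listed at 0 in all 9 libraries. Npr3, a gene of endocardium, reached 36.4 FPKM in control 1 and 16.3 in high dose 3, the 2 libraries with the most Myh6 and Eng. None of these genes passed by limma.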
